A study of Mus musculus with 55 samples.

Results

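The genes described here are 36 mouse genes of protein folding and quality control in the endoplasmic reticulum (ER). They were listed by name for their known roles, with no threshold on values but with earlier results of these data known, those of Derl3 and Ufl1 included, and comprise 15 chaperones and folding enzymes, 4 genes of stress sensing, 11 genes of ER-associated degradation (ERAD) and 6 genes of UFMylation. All 36 were found among the 28492 genes of one count table and the 28216 genes of the other.

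The RNA came from primary neurons of cortex and hippocampus of CD1 mouse embryos of mixed sex, with no transgene or deletion in any group. The maturation experiment held 28 samples at 7DIV and at a later stage that the sample labels give as 23DIV and that is called 21DIV here. At each stage the neurons were basal, depolarized with 55 mM KCl, or treated with 50 μM bicuculline together with 2.5 mM 4-aminopyridine (Bic+4AP) for 15 or 180 min. The stimuli experiment held 27 samples at 21DIV, which were basal, given KCl at the same dose or 50 μM bicuculline alone (Bic) for 15, 45 or 180 min, silenced for 48 h with 1 μM tetrodotoxin (basal TTX), or silenced and then washed free of TTX for 15, 45 or 180 min (TTXw). All basal and basal TTX samples are labelled 0 min, so the labels give no control matched to the later times. Bicuculline blocks GABA-A receptors, 4-aminopyridine blocks potassium channels and TTX blocks sodium channels. At 21DIV of the maturation experiment there were 3 samples per group, except 2 in each Bic+4AP group. The 7DIV groups had 3 each. In the stimuli experiment there were 3 basal and 4 basal TTX samples, 2 in each KCl and Bic group and in TTXw at 45 min, and 3 in TTXw at 15 and 180 min. These are wells of mixed cultures, and nothing in the sources used here ties samples to separate animals, so p-values measure the spread between these samples, which may be technical.

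Proteins that enter the ER are folded by chaperones such as BiP (Hspa5) and by disulfide isomerases. When unfolded protein accumulates, the sensors IRE1 (Ern1), ATF6 and PERK (Eif2ak3) start the unfolded protein response, in which XBP1 and ATF6 raise transcription of chaperones and of ERAD genes. ERAD recognises misfolded proteins, moves them back to the cytosol through membrane complexes and hands them to the proteasome, while UFMylation attaches the small protein UFM1 to targets that include ribosomes docked on the ER. Neurons make large amounts of membrane and secreted protein, and this machinery serves their receptors, channels and released peptides.

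Counts on genes ranged from 1659722 to 4474968 at 7DIV, from 1784170 to 14012872 at 21DIV of the maturation experiment, and from 1177500 to 3909487 in the stimuli experiment. Values are given as CPM, which are counts scaled to a common library size with TMM factors (a correction for library composition), and are compared between samples of 1 gene only. A gene counted as changed when its Benjamini-Hochberg adjusted p in edgeR's quasi-likelihood test was under 0.05 and its change was at least 1.5-fold. Ern1 and Hyou1, which codes for an ER chaperone, were too low to test anywhere. Ern1 had 22 counts in each experiment, at most 5 in any library, and was at 0 in 15 libraries of each. Hyou1 had 252 and 73 counts in all. That left 34 genes to test, and 30 in the comparison of basal stages, where Derl3, Eif2ak3, Pdia4 and Sdf2l1 also fell under the filter. The counts are of transcript 3′ ends, so splicing of Xbp1 and activation of the sensors were not measured. The cultures held neurons with glia, and in bulk RNA fewer cells of a type and less RNA per cell cannot be told apart.

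The promoters of 10 of these genes are shown because they hold a sequence element named for the ER stress response; 4 of the 10 (Calr, Canx, Dnajc3 and Syvn1) were called in no comparison. In RefSeq windows (GRCm38.p6, 250 bases before to 50 after the start, found for 32 of the 36 genes and not for Atf6, Manf, Derl1 and Hyou1) the ER stress element, CCAAT and CCACG with any 9 bases between them, searched on both strands, occurred in 9 genes (28.1%). Over all genes with a window it occurred in 37 of 27025 (0.137%), these 9 included, and in 39 of all 32851 windows (0.119%). The genes were listed for roles in the ER, so this contrast is no test. The compact form, ATTGG and CCACG with any 1 base between them, was found in Herpud1 and Dnajb11 among these genes and in 12 windows of all (0.0365%). Only stretches before the start are shown, so Dnajb11, whose match lies after the start, is left out. Dnajb11 was also called in no comparison. A match describes the sequence only. Each line gives the coordinates and strand, and the capitals mark the element as it reads on the gene's strand, so that a reverse match begins with CGTGG.
Hspa5, chr2:34771920-34772089, plus strand: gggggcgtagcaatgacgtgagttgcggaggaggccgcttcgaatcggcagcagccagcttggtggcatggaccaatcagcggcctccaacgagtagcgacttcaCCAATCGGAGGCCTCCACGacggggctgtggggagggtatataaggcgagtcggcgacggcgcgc
Hsp90b1, chr10:86705513-86705676, minus strand: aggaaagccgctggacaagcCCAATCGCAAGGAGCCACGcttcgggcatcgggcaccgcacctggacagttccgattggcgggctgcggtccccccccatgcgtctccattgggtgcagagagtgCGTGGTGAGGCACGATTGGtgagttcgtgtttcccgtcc
Pdia6, chr12:17266471-17266529, plus strand: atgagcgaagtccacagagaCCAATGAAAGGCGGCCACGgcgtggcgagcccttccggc
Calr, chr8:84847055-84847113, minus strand: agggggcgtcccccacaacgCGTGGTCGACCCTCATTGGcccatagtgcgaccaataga
Canx, chr11:50325780-50325838, minus strand: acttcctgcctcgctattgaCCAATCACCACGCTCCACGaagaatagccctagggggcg
Dnajc3, chr14:118937807-118937865, plus strand: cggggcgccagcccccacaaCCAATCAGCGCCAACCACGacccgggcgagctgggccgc
Creld2, chr15:88819500-88819558, plus strand: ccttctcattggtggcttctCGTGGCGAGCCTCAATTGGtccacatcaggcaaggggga
Derl3, chr10:75893222-75893280, plus strand: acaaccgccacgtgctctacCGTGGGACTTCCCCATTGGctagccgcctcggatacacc
Syvn1, chr19:6046512-6046570, plus strand: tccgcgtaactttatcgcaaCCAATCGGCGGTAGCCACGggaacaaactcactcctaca
Herpud1, chr8:94386357-94386407, plus strand: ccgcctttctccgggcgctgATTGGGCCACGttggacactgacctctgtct

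Hsp90b1 carried the element at 2 places, the first on the gene's strand and the second on the reverse strand, 212 and 107 bases before the start. The Hspa5 stretch also holds the core of the UPR element, TGACGTG, 157 bases before the start, a heptamer present in 2.01% of all windows and otherwise found among these genes in Ufl1 and Vcp. The cyclic AMP response element TGACGTCA, present in 1.79% of windows, was found in Ufsp2 alone among them. In the same build, Xbp1 lies at chr11:5520641-5525993 (plus strand), P4hb at chr11:120560298-120573253 (minus), Atf6 at chr1:170704457-170868585 (minus), Eif2ak3 at chr6:70844484-70905241 (plus) and Ufl1 at chr4:25247149-25281821 (minus). The 6 UFMylation genes held neither form of the ER stress element.

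**Figure D1:**
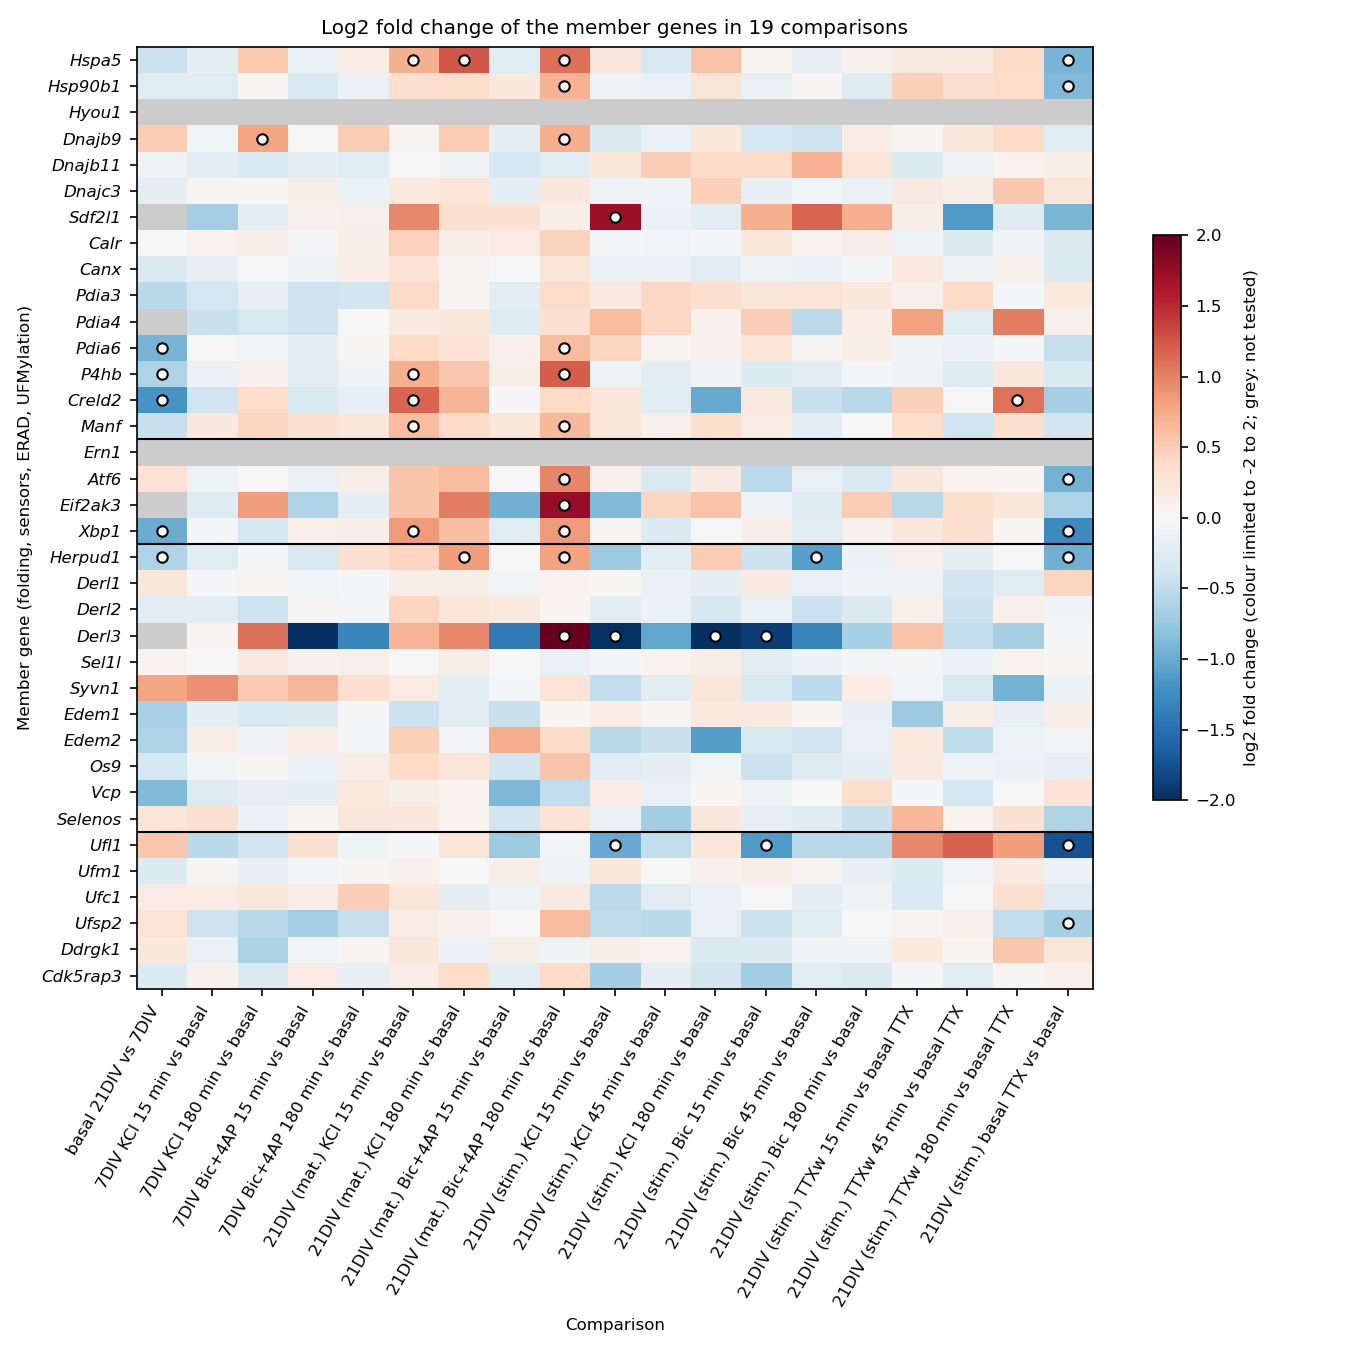
Log2 fold change of the 36 genes (rows, in the order folding, sensors, ERAD, UFMylation, separated by lines) in 19 comparisons (columns; mat. is the maturation experiment and stim. the stimuli experiment), with red higher, blue lower, grey not tested and white circles for called changes. Circles gather in the column of 21DIV neurons after 180 min of Bic+4AP, where 11 genes were higher, and in that of basal TTX, where 7 were lower.

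Over all 24 comparisons, 15 of the 34 tested genes were called at least once, and 9 of these were called higher in one comparison and lower in another. The other 19 were never called, among them the lectin chaperones Calr and Canx, the disulfide isomerases Pdia3 and Pdia4, the ERAD genes Sel1l, Syvn1, Edem1, Edem2, Os9, Derl1, Derl2, Vcp and Selenos, and the UFMylation genes Ufm1, Ufc1, Ddrgk1 and Cdk5rap3. Sel1l, the adaptor of the ubiquitin ligase that Syvn1 encodes, stayed within log2 fold changes of -0.25 and 0.18. In single comparisons 0% to 33.1% of all genes were called in either direction. The shares of all genes called at least once, both ways or never were not computed, so the counts of 15, 9 and 19 only describe the list.

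The first comparison asked how basal levels differ between young and mature neurons. Pdia6, Xbp1, P4hb, Creld2 and Herpud1 were lower at 21DIV than at 7DIV, and none was higher. These were 5 of the 30 tested genes (16.7%), where 14.9% of all genes were called lower and 18.2% higher, so the lower calls were near the background share. The median log2 fold change of the 30 was -0.25, against 0.01 over all genes. The 21DIV basal samples used here are also the reference for the stimuli at 21DIV of the maturation experiment, so those results are not independent of this one.

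Pdia6, a disulfide isomerase, had 207, 243 and 204 CPM in the 7DIV samples and 117, 104 and 116 CPM at 21DIV. It was 1.90-fold lower at 21DIV with no overlap of the groups (log2 fold change -0.93, SE 0.14, adjusted p = 0.000118). Xbp1, the transcription factor that IRE1 activates by splicing its mRNA, had 173, 177 and 135 CPM at 7DIV and 95.4, 67.2 and 74.9 CPM at 21DIV. The groups lay apart, and the fall was 1.99-fold (log2 fold change -0.996, SE 0.17, adjusted p = 0.000420). P4hb, the classic protein disulfide isomerase, had 80.5, 76.1 and 75.0 CPM at 7DIV and 53.9, 47.4 and 47 CPM at 21DIV.

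All 7DIV values of P4hb were above all those at 21DIV (log2 fold change -0.61, SE 0.15, adjusted p = 0.00648). Creld2, an ER-resident EGF-domain protein, had 8.05, 17.2 and 20.04 CPM at 7DIV and 7.78, 4.83 and 7.08 CPM at 21DIV. Its 7DIV samples were spread widely and the lowest of them nearly reached the 21DIV values (log2 fold change -1.18, SE 0.36, adjusted p = 0.01996). Herpud1, a membrane protein of the ERAD complex, had 49.3, 36.8 and 37.1 CPM at 7DIV and 22.1, 21.6 and 34.4 CPM at 21DIV. Its groups lay apart by a narrow gap, and its adjusted p was close to the threshold (log2 fold change -0.62, SE 0.23, adjusted p = 0.0487).

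Hspa5, Manf and Os9 were lower with an adjusted p under the threshold but under 1.5-fold, which made 8 of 30 lower at any fold against 17.9% of all genes. BiP (Hspa5) had 317, 277 and 283 CPM at 7DIV and 250.2, 206 and 181 CPM at 21DIV, a log2 fold change of -0.43 (SE 0.14, adjusted p = 0.0280). None of the 6 UFMylation genes was called; Ufm1, the modifier itself, had 109.9, 130.0 and 119.7 CPM at 7DIV and 94.9, 91.2 and 105 CPM at 21DIV, without overlap (log2 fold change -0.27, SE 0.14, adjusted p = 0.149). Atf6 had 20.8, 20.9 and 21.1 CPM at 7DIV and 29.2, 23.1 and 23.1 CPM at 21DIV, also without overlap but in the other direction (log2 fold change 0.29, SE 0.21, adjusted p = 0.316).

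Glial markers moved with this comparison. Of 12 astrocyte markers 11 were higher at 21DIV, and their summed level was 598 to 872 CPM at 7DIV and 4691 to 5743 CPM at 21DIV, while all 10 tested oligodendrocyte-lineage markers were higher and the summed level of 8 neuronal markers went from 11141 to 11375 CPM down to 8299.7 to 9625 CPM. Their part in the lower ER genes was not tested. Without 7DIV basal replicate 3 or replicate 4 the count of called genes was 3, with Pdia6 and Xbp1 called in every setting tried.

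In developing neurons few genes were called after the stimuli, in this list or over all genes. At 7DIV, 1 of 34 genes was called, after 180 min of KCl, where 1.05% of all genes were called higher. It was Dnajb9, a J-domain cochaperone of BiP, with 54.0, 27.6 and 38.5 CPM in basal and 68.6, 74.0 and 66.1 CPM in KCl-treated neurons. The groups did not overlap (1.73-fold, log2 fold change 0.79, SE 0.21, adjusted p = 0.0415), but the call was lost without any 1 of the 6 libraries other than basal replicate 2.

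At 7DIV after 180 min of KCl, Hspa5 had 435, 379 and 445 CPM, all above its basal values, with a log2 fold change of 0.52 (SE 0.21, adjusted p = 0.256). After 15 min of KCl and after 15 or 180 min of Bic+4AP edgeR called 0 of 34 genes and 0% of all genes, with 1, 1 and 2 of the 34 at an unadjusted p under 0.05. DESeq2 also called 0 of them.

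In mature neurons many of these genes rose. After 180 min of Bic+4AP at 21DIV, 11 of 34 genes (32.4%) were higher than in basal neurons and none was lower, where 7.39% of all genes were called higher and 6.84% lower. These were 6 of 14 tested folding genes, all 3 tested genes of stress sensing, 2 of 11 ERAD genes and none of 6 UFMylation genes. The median log2 fold change of the 34 was 0.37, with 28 above 0, against -0.02 over all genes. There were only 2 treated samples, and without Bic+4AP replicate 2 the count fell to 2, P4hb and Hsp90b1, with the lone remaining sample assumed to vary like the other groups; without basal replicate 2 or replicate 3 it was 7.

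**Figure D2:**
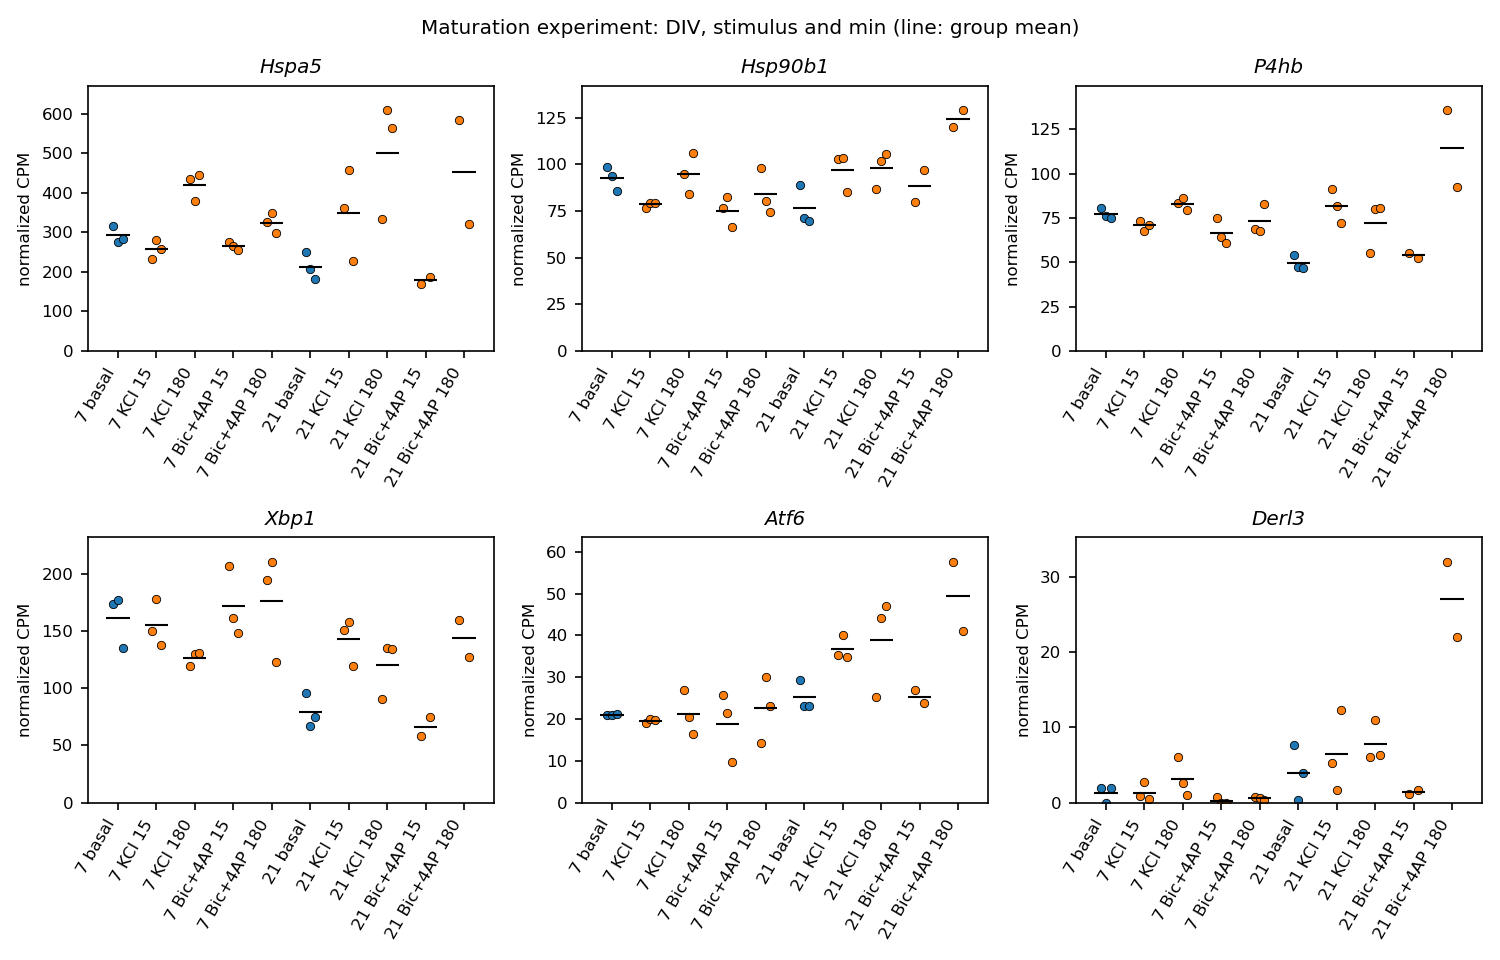
Normalized CPM in each sample (points, with a line at the group mean) of 6 genes in the maturation experiment, by DIV, stimulus and minutes, with basal groups in blue and stimulated groups in orange. Both 21DIV samples after 180 min of Bic+4AP lie above the 3 basal samples of their stage for each of the 6 genes, while at 7DIV the samples after the same treatment do not all lie above basal for any of them.

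P4hb had 53.9, 47.4 and 47 CPM in basal 21DIV neurons and 136 and 92.5 CPM after 180 min of Bic+4AP. It was 2.32-fold higher (log2 fold change 1.21, SE 0.17, adjusted p = 1.02e-05), and the lower treated sample was well above the highest basal one. Hspa5 had 250.2, 206 and 181 CPM in basal and 585 and 321 CPM in treated neurons. The groups were apart but the treated samples differed widely, and the 2.14-fold change (log2 fold change 1.097, SE 0.22, adjusted p = 0.00103) shrank to a log2 fold change of 0.60 (adjusted p = 0.173) without replicate 2.

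Hsp90b1, the ER form of the HSP90 chaperone, had 89.2, 71.5 and 69.7 CPM in basal and 120.1 and 129 CPM in treated neurons. Its treated samples were close together and above all basal samples (1.62-fold, log2 fold change 0.70, SE 0.15, adjusted p = 0.00198). Pdia6 had 117, 104 and 116 CPM in basal and 194 and 153 CPM in treated neurons. This was a 1.54-fold rise without overlap (log2 fold change 0.63, SE 0.16, adjusted p = 0.00654). Dnajb9 (log2 fold change 0.72, SE 0.21, adjusted p = 0.0178) and Manf, a secreted and ER-retained trophic factor (log2 fold change 0.65, SE 0.20, adjusted p = 0.0257), completed the folding genes that rose.

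Among the genes of stress sensing, Xbp1 had 95.4, 67.2 and 74.9 CPM in basal and 159.7 and 127 CPM in treated neurons. It rose 1.81-fold (log2 fold change 0.86, SE 0.21, adjusted p = 0.00468). Atf6, the membrane-bound transcription factor released by cleavage, had 29.2, 23.1 and 23.1 CPM in basal and 57.7 and 41 CPM in treated neurons. It rose 1.97-fold, again without overlap (log2 fold change 0.98, SE 0.28, adjusted p = 0.0146). Eif2ak3, the PERK kinase that slows translation, was low, with 2.77, 3.22 and 1.88 CPM in basal and 10.7 and 6.78 CPM in treated neurons (log2 fold change 1.75, SE 0.50, adjusted p = 0.0153).

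Of the ERAD genes, Derl3, a derlin of the retrotranslocation complex, had 7.61, 0.358 and 3.98 CPM in basal and 32.1 and 22 CPM in treated neurons. Its basal samples spread widely, with only the lowest near 0, and the fitted rise was 6.74-fold (log2 fold change 2.75, SE 0.68, adjusted p = 0.00551). Herpud1 had 22.1, 21.6 and 34.4 CPM in basal and 54.9 and 36.6 CPM in treated neurons (log2 fold change 0.81, SE 0.27, adjusted p = 0.0400), with the lower treated sample just above the highest basal one. Os9, the lectin that selects ERAD substrates, and Calr passed the adjusted threshold with log2 fold changes of 0.57 and 0.45, under 1.5-fold, which made 13 of 34 genes higher at any fold against 8.79% of all genes.

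The UFMylation genes were not called. Ufm1 had 94.9, 91.2 and 105 CPM in basal and 89.9 and 96.3 CPM in treated neurons, overlapping (log2 fold change -0.06, SE 0.17, adjusted p = 0.841). Ufsp2, the protease that removes UFM1 from targets, had 35.8, 32 and 27.8 CPM in basal and 53.2 and 44.8 CPM in treated neurons (log2 fold change 0.63, SE 0.25, adjusted p = 0.0774). Among the 9 genes with the ER stress element 4 were called (Derl3, Hsp90b1, Hspa5 and Pdia6), and 5 of the 22 tested genes whose windows lack it.

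Glial markers were lower in these treated samples. The summed level of 12 astrocyte markers was 4691 to 5743 CPM in basal and 1785 to 3434 CPM in treated neurons, with 4 markers called lower, and 4 of 10 oligodendrocyte-lineage markers were lower and 1 was higher. The summed level of the neuronal markers was 8299.7 to 9625 CPM in basal and 7556 to 8299 CPM in treated neurons. Their part in the rise of the ER genes was not tested.

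At 15 min of Bic+4AP edgeR called 0 of 34 genes at 21DIV, where 0.0511% of all genes were called, with 1 of the 34 at an unadjusted p under 0.05 and 0 called by DESeq2. Hspa5 had 169.6 and 187 CPM then, within or below the basal range.

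The stage difference of the response was tested directly, as the interaction of stage and treatment at 180 min of Bic+4AP. It passed an adjusted p of 0.05 for P4hb and Hsp90b1, 2 of 34 genes, both with the larger change at 21DIV, where 2.58% of all genes passed in that direction. P4hb at 7DIV had 80.5, 76.1 and 75.0 CPM in basal and 69.0, 67.8 and 82.8 CPM in treated neurons, so its groups overlapped there, and the rise at 21DIV exceeded the change at 7DIV by 1.29 on the log2 scale (SE 0.23, adjusted p = 0.00140). Hsp90b1 at 7DIV had 98.5, 93.8 and 85.6 CPM in basal and 98.0, 80.4 and 74.2 CPM in treated neurons. Its difference was 0.83 (SE 0.21, adjusted p = 0.0191), and its adjusted p was 0.0546 to 0.0669 without 7DIV basal replicate 2, 7DIV Bic+4AP replicate 3, 21DIV basal replicate 2 or 3, or either 21DIV Bic+4AP sample. Without 21DIV basal replicate 1 the stage difference passed for 4 genes. The interaction was positive for 28 of the 34 genes and for all 14 tested folding genes, with a median of 0.34 over the 34 against -0.02 over all genes. For Hspa5 it was 0.95 (SE 0.31, adjusted p = 0.0674) and for Derl3 4.06 (SE 1.37, adjusted p = 0.0818), neither past the threshold.

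**Figure D3:**
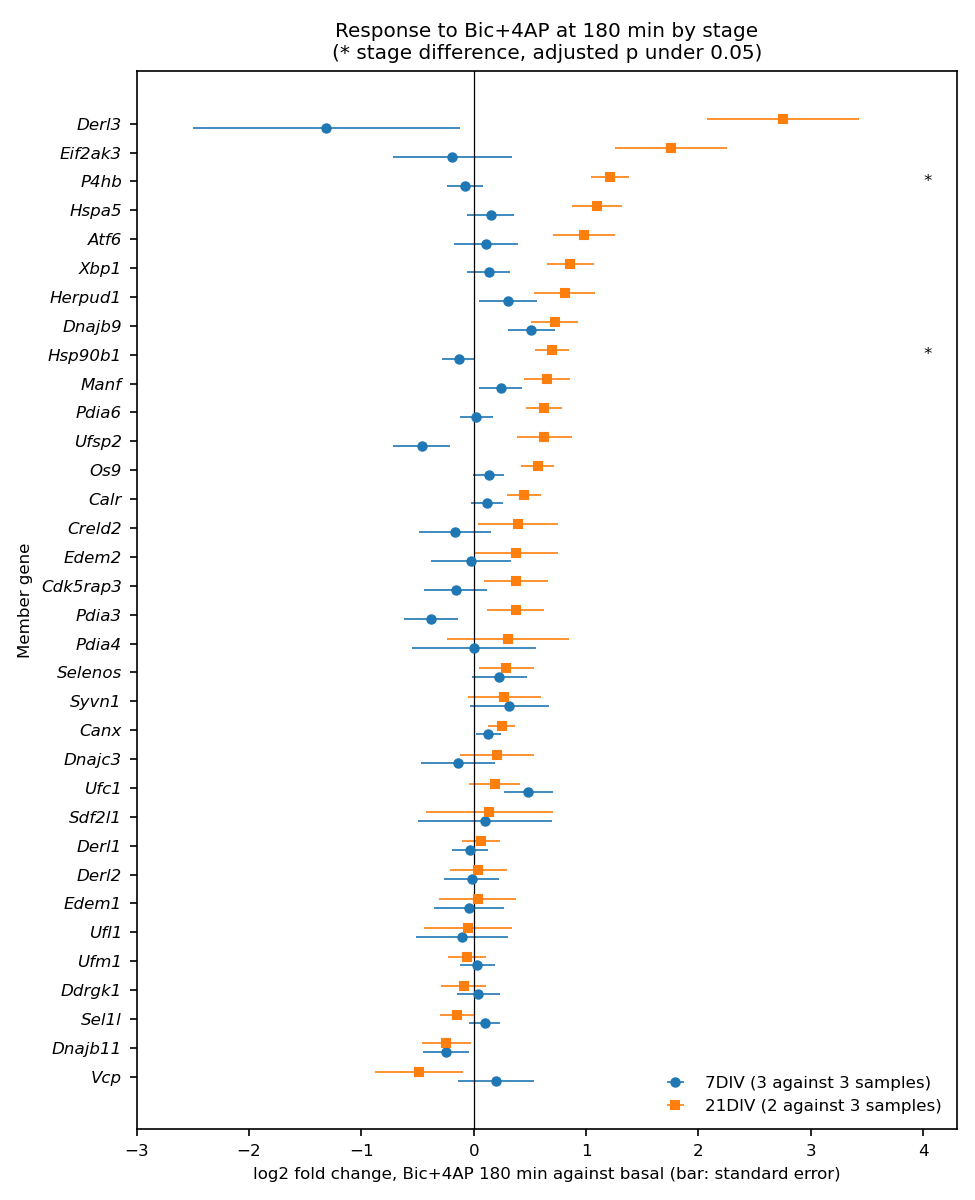
Log2 fold change after 180 min of Bic+4AP against basal (horizontal axis, bars are standard errors) of the 34 tested genes at 7DIV (blue circles, 3 against 3 samples) and 21DIV (orange squares, 2 against 3 samples), with an asterisk where the stage difference passed an adjusted p of 0.05. The 21DIV values run from -0.49 for Vcp to 2.75 for Derl3, and the asterisks mark P4hb and Hsp90b1.

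Depolarization with KCl in the maturation experiment raised a smaller set at 21DIV. After 15 min, 5 of 34 genes (14.7%) were higher and none lower, where 3.21% of all genes were called higher and 3.02% lower. P4hb had 91.5, 81.7 and 72.1 CPM, all above its basal 53.9, 47.4 and 47 CPM (1.66-fold, log2 fold change 0.73, SE 0.15, adjusted p = 0.00284). Xbp1 had 151, 158 and 119 CPM against 95.4, 67.2 and 74.9 CPM in basal neurons. The rise was 1.80-fold without overlap (log2 fold change 0.85, SE 0.19, adjusted p = 0.00433).

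Creld2 had 17.5, 15.5 and 11.0 CPM after 15 min of KCl and 7.78, 4.83 and 7.08 CPM in basal neurons (log2 fold change 1.16, SE 0.30, adjusted p = 0.0158). Hspa5 had 362, 457 and 228 CPM against 250.2, 206 and 181 CPM, so its lowest treated sample fell within the basal range (log2 fold change 0.72, SE 0.20, adjusted p = 0.0256). Manf had 87.0, 76.0 and 67.1 CPM against 56.4, 47.6 and 47.4 CPM in basal neurons (log2 fold change 0.61, SE 0.18, adjusted p = 0.0350). The median log2 fold change of the 34 genes was 0.31, with 30 above 0. Leaving out 1 library moved the count of calls to between 1 (without basal replicate 2) and 6. It was 2 without basal replicate 3 or KCl replicate 1 and 3 without KCl replicate 2.

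After 180 min of KCl, 2 of 34 genes were called, both higher, where 2.98% of all genes were called higher. Hspa5 had 333, 609 and 562 CPM, all above its basal samples (2.36-fold, log2 fold change 1.24, SE 0.21, adjusted p = 0.000415), a call kept in every setting tried. Herpud1 had 38.9, 57.2 and 44.1 CPM against 22.1, 21.6 and 34.4 CPM in basal neurons (log2 fold change 0.83, SE 0.25, adjusted p = 0.0403). KCl replicate 1 was the lowest of its group for Hspa5, Hsp90b1, P4hb, Xbp1 and Atf6, and without it 6 genes were called, while without KCl replicate 2 or 3 or basal replicate 2 the count was 1. The summed astrocyte markers were 6086 CPM in KCl replicate 1 and 2896 and 4069 CPM in the other KCl samples, against 4691 to 5743 CPM in basal neurons. The summed oligodendrocyte-lineage markers were 2511 to 3321 CPM in basal neurons, 2013 to 2251 CPM after 15 min and 1290.4 to 1757 CPM after 180 min of KCl, with 1 and 2 of 10 called lower. The summed neuronal markers were 7533 to 8148 CPM after 15 min and 7670 to 7952 CPM after 180 min, below all basal samples (8299.7 to 9625 CPM), and the part of these shifts in the ER genes was not tested. The stage difference of the response to 180 min of KCl passed for 0 of 34 genes in edgeR, against 0.775% of all genes, with 3 at an unadjusted p under 0.05 and 1 called by DESeq2. For Xbp1 it was 0.94 (SE 0.27, adjusted p = 0.0885). The KCl and Bic+4AP comparisons share their basal samples. The comparison of basal stages and the stage differences rest on these mature basal samples too. Every gene called lower in mature basal neurons (Pdia6, Xbp1, P4hb, Creld2 and Herpud1) was also called higher after KCl or Bic+4AP. Low values in these samples alone would move both results, so the lower and higher calls are not independent. Whether these samples were low for such genes was not tested.

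The largest set of lower genes in the stimuli experiment was found in silenced neurons. In basal TTX, 7 of 34 genes (20.6%) were lower than in basal neurons and none was higher, where 10.8% of all genes were called lower and 10.8% higher. They were the chaperones Hspa5 and Hsp90b1, the regulators Xbp1 and Atf6, the ERAD gene Herpud1, and Ufl1 and Ufsp2 of UFMylation. The median log2 fold change of the 34 was -0.25, with 24 below 0, against 0 over all genes to 2 decimals. By the study's methods, controls of TTX withdrawal were washed like the withdrawal wells, and basal wells of the KCl and Bic protocols had a small volume replaced. The 2 groups may therefore differ in medium handling, which cannot be told apart from silencing here.

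**Figure D4:**
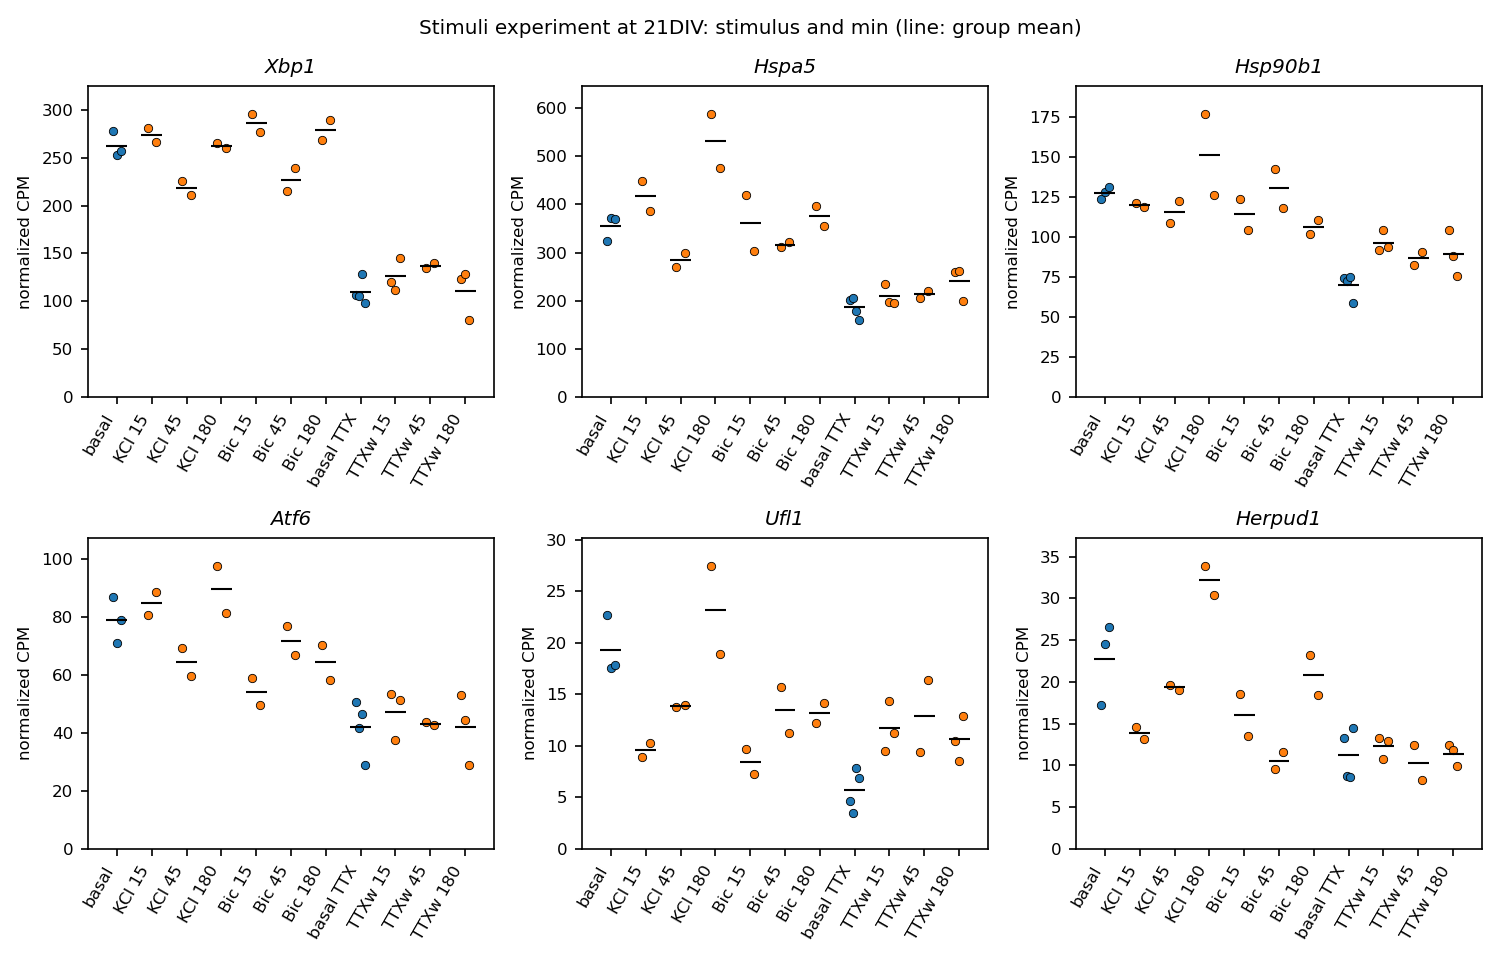
Normalized CPM in each sample (points, with a line at the group mean) of 6 genes in the stimuli experiment at 21DIV, by stimulus and minutes, with the basal and basal TTX groups in blue and the others in orange. For all 6 genes the 4 basal TTX samples lie below all 3 basal samples, and for Xbp1 and Ufl1 the 8 TTXw samples do so too.

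Xbp1 had 278, 253 and 257 CPM in basal and 107, 106, 128 and 98.0 CPM in basal TTX neurons. It was 2.41-fold lower (log2 fold change -1.27, SE 0.12, adjusted p = 9.51e-11), the lowest adjusted p of the 34 genes in that comparison. Hspa5 had 325, 372 and 370.3 CPM in basal and 201, 205, 179.5 and 161 CPM in basal TTX neurons. BiP mRNA was thus 1.91-fold lower, with a wide gap between the groups (log2 fold change -0.93, SE 0.12, adjusted p = 7.52e-08).

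Hsp90b1 had 124, 128 and 131 CPM in basal and 74.5, 72.6, 75.1 and 58.6 CPM in basal TTX neurons. The fall was 1.84-fold (log2 fold change -0.88, SE 0.13, adjusted p = 1.36e-06). Atf6 had 86.8, 71.1 and 78.8 CPM in basal and 50.6, 41.8, 46.5 and 28.9 CPM in basal TTX neurons. All silenced samples were below all basal ones (1.93-fold, log2 fold change -0.95, SE 0.17, adjusted p = 2.14e-05). Herpud1 had 17.2, 24.6 and 26.5 CPM in basal and 13.3, 8.71, 8.58 and 14.5 CPM in basal TTX neurons (log2 fold change -0.96, SE 0.22, adjusted p = 0.000748).

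Ufl1, the ligase that attaches UFM1, had 22.6, 17.5 and 17.8 CPM in basal and 4.66, 3.48, 7.87 and 6.87 CPM in basal TTX neurons. At 3.34-fold it had the largest fall of the 34 genes (log2 fold change -1.74, SE 0.27, adjusted p = 2.13e-06). Ufsp2 had 26.6, 26.4 and 19.0 CPM in basal and 16.6, 16.3, 12.2 and 15.2 CPM in basal TTX neurons (log2 fold change -0.67, SE 0.20, adjusted p = 0.00819). Ufm1 overlapped between the groups, with 115, 119.8 and 106 CPM in basal and 89.1, 93.5, 122 and 115 CPM in basal TTX neurons (log2 fold change -0.11, SE 0.13, adjusted p = 0.559). Eif2ak3 had 8.60, 6.70 and 9.48 CPM in basal and 9.98, 4.65, 3.58 and 3.98 CPM in basal TTX neurons, where replicate 1 stood above the basal samples.

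Pdia6, Calr and Canx passed the adjusted threshold lower by less than 1.5-fold, and Derl1, another derlin, passed it higher (log2 fold change 0.42, SE 0.14, adjusted p = 0.0213). At any fold 10 of 34 genes were lower and 1 was higher, where 16.1% of all genes were lower and 14.4% higher. P4hb did not pass, with 65.0, 72.2 and 64.1 CPM in basal and 55.9, 63.3, 55.1 and 45.9 CPM in basal TTX neurons (log2 fold change -0.30, SE 0.14, adjusted p = 0.105). Of the 9 genes with the ER stress element, 2 were called lower, and 4 of the 22 tested genes whose windows lack it.

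All 12 astrocyte markers were higher in basal TTX than in basal neurons, with a summed level of 2653 to 3261 CPM in basal and 7473 to 8532 CPM in basal TTX, and 7 of 10 oligodendrocyte-lineage markers were higher. The summed neuronal markers were 9209 to 9606 CPM in basal and 6768 to 7902 CPM in basal TTX. Their part in the lower ER genes was not tested. The calls of Xbp1, Hspa5, Hsp90b1, Atf6, Herpud1 and Ufl1 were kept in every setting tried, while that of Ufsp2 was lost without basal replicate 1 (log2 fold change -0.58, adjusted p = 0.0541).

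The next comparison asked whether these genes change once TTX is washed out. Time since the wash cannot be told apart from returning activity here. TTXw was compared with basal TTX, the group that the previous comparison also used. After 180 min 1 of 34 genes was called, Creld2, where 7.33% of all genes were called higher. Creld2 had 5.32, 9.87, 6.44 and 7.23 CPM in basal TTX and 15.7, 18 and 12.1 CPM after washout. The groups did not overlap, and the rise was 2.12-fold (log2 fold change 1.09, SE 0.33, adjusted p = 0.0161). The call was lost without TTXw replicate 2 and with counts summed over transcripts, while 2 genes were called without TTXw replicate 1 or 3 or basal TTX replicate 2 or 4, and 3 without basal TTX replicate 3.

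Hspa5, Dnajc3, the cochaperone that also inhibits PERK, and Ddrgk1, the membrane anchor of the UFM1 ligase, passed the adjusted threshold higher by less than 1.5-fold, so that 4 of 34 were higher at any fold against 9.64% of all genes. Hspa5 had 201, 205, 179.5 and 161 CPM in basal TTX and 259, 262 and 199.7 CPM after 180 min of washout, which overlap (log2 fold change 0.38, SE 0.12, adjusted p = 0.0278). Xbp1 had 123, 128 and 80.5 CPM after 180 min and differed little from basal TTX (log2 fold change 0.03, SE 0.13, adjusted p = 0.893). It had 120.5, 112 and 145 CPM at 15 min and 134 and 140.5 CPM at 45 min, all below the basal 253 to 278 CPM. Ufl1 had 10.5, 8.52 and 12.9 CPM after 180 min, above the basal TTX samples without passing the threshold (log2 fold change 0.84, SE 0.32, adjusted p = 0.0573). Its log2 fold change was larger after 45 min of washout, at 1.17, also without passing.

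Astrocyte markers were also higher in TTXw at 180 min, with a summed level of 10964 to 15322 CPM and 6 of 12 called, and 5 of 8 neuronal markers were called lower, with a summed level of 4214 to 5219 CPM. Whether these shifts touch the ER genes was not tested. At 15 and 45 min of washout edgeR called 0 of 34 genes, against 0% and 0.382% of all genes, with 4 and 5 at an unadjusted p under 0.05 and 0 called by DESeq2.

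Stimulation without prior silencing changed few of these genes in the stimuli experiment. The lower calls were of Derl3, Ufl1 and Herpud1 only, against the same basal samples. After 15 min of KCl 3 of 34 genes were called against 7.22% of all genes. At any fold 2 passed the adjusted threshold higher and 2 lower, where 5.56% of all genes were higher and 3.3% lower. Of the 34 log2 fold changes 15 were above 0 and 19 below. Derl3 had 10.9, 5.95 and 8.72 CPM in basal and 3.25 and 1.25 CPM in KCl-treated neurons (log2 fold change -1.98, SE 0.50, adjusted p = 0.00819). Ufl1 had 22.6, 17.5 and 17.8 CPM in basal and 8.94 and 10.3 CPM after KCl (log2 fold change -1.004, SE 0.28, adjusted p = 0.0172). Sdf2l1, a luminal partner of the J-domain protein Dnajb11, was the only higher gene of the 3 called. It had 2.58, 2.60 and 1.90 CPM in basal and 8.53 and 7.48 CPM after KCl (log2 fold change 1.73, SE 0.53, adjusted p = 0.0331). Sdf2l1 had a median of only 5 counts per library in this experiment. Its call was lost without any 1 of the 3 basal samples.

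After 15 min of Bic, 2 of 34 genes were called lower, where 1.01% of all genes were, and both were among those that KCl lowered. Ufl1 had 9.63 and 7.20 CPM, below all basal samples (log2 fold change -1.14, SE 0.31, adjusted p = 0.0268). Derl3 had 2.96 and 0.900 CPM, also below all basal samples (log2 fold change -1.88, SE 0.55, adjusted p = 0.0395). The KCl and Bic comparisons share their 3 basal samples. The study had already named Derl3 and Ufl1 among genes lower after activation, and they were listed with that known. The share of all genes is therefore no independent yardstick for their calls, here or after KCl. After 45 min of Bic 1 gene was called, Herpud1, lower, where 2.95% of all genes were called lower. It had 9.60 and 11.5 CPM against 17.2, 24.6 and 26.5 CPM in basal neurons (log2 fold change -1.08, SE 0.26, adjusted p = 0.00488).

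After 45 min of KCl edgeR and DESeq2 called 0 of 34 genes, against 0.765% of all genes in edgeR, with 4 at an unadjusted p under 0.05. After 180 min of KCl 1 was called, Derl3, lower, where 0.258% of all genes were called lower, with 0.807 and 1.72 CPM (log2 fold change -2.64, SE 0.66, adjusted p = 0.0425). Derl3 had a median of 11 counts per library in this experiment and a lowest count of 1. Its values here and after 15 min of KCl or Bic therefore rest on few counts. Hspa5 had 587 and 475 CPM after 180 min of KCl, above all basal samples, and passed the adjusted threshold just under 1.5-fold, as 0.549% of all genes did upward at any fold (log2 fold change 0.58, SE 0.14, adjusted p = 0.0325). After 180 min of Bic edgeR and DESeq2 called 0 of 34 genes, against 0.765% in edgeR, with 1 at an unadjusted p under 0.05, and Hspa5 had 396 and 356 CPM. Each of these calls rested on 2 treated samples. With counts summed over a gene's transcripts, an alternative added after seeing the data, Ufl1 was not called after 15 min of KCl (adjusted p = 0.111) or of Bic (adjusted p = 0.104), while Derl3 and Sdf2l1 fell under the filter and were not tested. Leaving out 1 library took the counts to 0 to 2 at 15 min of KCl (0 without KCl replicate 2, 1 without KCl replicate 1 or basal replicate 1), 0 to 1 at 180 min of KCl (0 without either KCl sample or basal replicate 1 or 5), 0 to 2 at 15 min of Bic (0 without either Bic sample or basal replicate 1, 1 without basal replicate 5) and 0 to 2 at 45 min of Bic (0 without either Bic sample, 2 without basal replicate 2).

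Astrocyte markers were higher in several of these comparisons. Their summed level was 2653 to 3261 CPM in basal neurons, 4816 to 4847 CPM after 15 min of KCl, 4568 to 4904 CPM after 15 min of Bic and 5245 to 5953 CPM after 45 min of Bic, with 5, 2 and 7 of 12 called higher. It was 3663 to 3687 CPM after 180 min of KCl, with none called. Of 10 oligodendrocyte-lineage markers, 4, 2 and 4 were higher after 15 min of KCl, 15 min of Bic and 45 min of Bic, and 2 were lower after 180 min of KCl; 2, 3 and 3 of 8 neuronal markers were higher at the first 3 of these. Their part in the calls of the ER genes was not tested.

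KCl and Bic were also compared with each other at matched times. At 15, 45 and 180 min edgeR called 0 of 34 genes, against 0%, 0.682% and 0.723% of all genes, with 1, 1 and 9 at an unadjusted p under 0.05. DESeq2 called 0 at each time. At 180 min Hspa5 was lower with Bic than with KCl by 0.50 on the log2 scale (SE 0.15, adjusted p = 0.145).

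KCl was the stimulus used at 21DIV in both experiments, whose tables were made separately, so only values side by side are given. After 15 min the log2 fold change of P4hb was 0.73 (SE 0.15) in the maturation and -0.09 (SE 0.16) in the stimuli experiment. That of Xbp1 was 0.85 (SE 0.19) and 0.06 (SE 0.14), with basal samples at 67.2 to 95.4 CPM in the one and 253 to 278 CPM in the other. For Hspa5 the values were 0.72 (SE 0.20) and 0.23 (SE 0.14) after 15 min and 1.24 (SE 0.21) and 0.58 (SE 0.14) after 180 min. For Derl3 after 15 min they were 0.68 (SE 0.63) and -1.98 (SE 0.50).

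Other genes of the ER were examined from a list of 70 genes of translocation, oxidation and folding, retrieval, glycan processing, further ERAD and UFMylation steps and UPR signalling. After 180 min of Bic+4AP at 21DIV 13 of 69 tested were higher and 1 lower, where 7.39% of all genes were called higher and 6.84% lower. Erp44, which retains folding enzymes in the early secretory pathway, rose by 1.47 on the log2 scale (SE 0.19, adjusted p = 4.01e-06). Ppp1r15a (GADD34), which reverses the translational block set by PERK, rose by 1.56 (SE 0.22, adjusted p = 1.01e-05), and Kdelr3, a receptor that returns ER proteins from the Golgi, by 2.83 (SE 0.45, adjusted p = 7.16e-05). After KCl at 21DIV of the maturation experiment 9 of 69 were higher at 15 min and 10 at 180 min, with none lower, where 3.21% and 2.98% of all genes were called higher. Ppp1r15a rose by 1.48 (SE 0.20, adjusted p = 3.60e-05) and 2.37 (SE 0.20, adjusted p = 6.19e-09). In the stimuli experiment the early calls of this list were lower. After 15 min of KCl 8 of 69 were lower and 0 higher, where 2.69% of all genes were called lower and 4.52% higher. After 15 and 45 min of Bic 2 and 6 were lower and 0 higher, where 1.01% and 2.95% of all genes were called lower. After 180 min of KCl 3 were higher and 0 lower, where 0.507% of all genes were called higher. None was called after 45 min of KCl or 180 min of Bic.

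In basal TTX 15 of these 69 genes were lower and 1 higher, where 10.8% of all genes were called lower and 10.8% higher. Atf4, the transcription factor translated when PERK is active, fell by 1.29 on the log2 scale (SE 0.11, adjusted p = 7.34e-12), Ppp1r15a fell by 2.13 (SE 0.21, adjusted p = 1.40e-10) and Ero1a, the oxidase that recharges P4hb, fell by 2.12 (SE 0.23, adjusted p = 1.59e-09). Washout for 180 min gave 7 of 69 higher and 3 lower, near the 7.33% higher and 6.69% lower over all genes, with Atf4 higher by 0.81 (SE 0.11, adjusted p = 1.12e-06) and Ppp1r15a by 1.21 (SE 0.24, adjusted p = 0.000213). The UPR signalling genes of this list, 12 in all, included 7 called in basal TTX (6 lower) and 7 called after 180 min of KCl at 21DIV of the maturation experiment (7 higher), against 10.8% of all genes lower in the one and 2.98% higher in the other. Between basal stages 3 of 67 were higher and 8 lower at 21DIV, both under the shares of all genes (18.2% higher and 14.9% lower). Among the lower was Atf4, which fell by 0.97 (SE 0.13, adjusted p = 6.14e-05).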

How the data were processed

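RNA of primary mouse neurons was sequenced by CEL-Seq2, which reads transcript 3′ ends. The authors aligned reads with STAR to mm10 and counted them per RefSeq transcript with ESAT; the deposited values are raw counts, whether UMIs were collapsed is not given in the sources used here, and all per-sample columns were used. Transcripts were matched to symbols by RefSeq accession (80.8% and 80.9% matched; unmatched ones held 18.5% and 19.2% of counts), and the transcript with the most counts stood for its gene. Counts above 5 CPM in at least 2 samples entered edgeR 4.0.16 (R 4.3.3) with TMM factors and the quasi-likelihood F test, with 1 fit per experiment and a separate fit of the 6 basal samples for the comparison of basal stages; p-values were adjusted over all genes by Benjamini-Hochberg, two-sided, and stage differences were called at an adjusted p under 0.05 with no fold limit. The procedure was tested on simulated data. Replicate pairs differed by more than counting noise. Alternatives were RLE size factors, no filter, a replicate block, DESeq2 1.42.0, the compared groups only, each library left out, and summed transcripts. Promoter windows came from RefSeq (GRCm38.p6). Figures were drawn with matplotlib 3.10.9. Members and lists were chosen with earlier results of these data known. Per-sample values are given for genes called in at least 1 comparison (at most 8 per comparison by adjusted p) and for Hspa5, Xbp1, Atf6, Ern1, Eif2ak3 and Ufm1; of the other ER genes, up to 3 with the lowest adjusted p. The authors' tools were taken from the study's methods and the submitters' processing notes.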

Additional observations from a re-analysis of the deposited data

Results flagged for a closer look

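In basal TTX, the one group of 4 samples, 3 of 34 genes had a sample far from the other 3, by Dixon's 95% critical value for the gap to the nearest neighbour over the range, which chance passes in about 1 in 20 groups. Eif2ak3 had 9.98 CPM in replicate 1 and 3.58 to 4.65 CPM in the others (gap 0.833 of the range). Hsp90b1 had 58.6 CPM in replicate 4 and 72.6 to 75.1 CPM in the others (0.848), and its fall against basal neurons was called in every setting tried, with and without that library. Pdia6 had 80.1 CPM in replicate 2 and 85.0 to 85.8 CPM in the others (0.854).

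The response to 180 min of Bic+4AP differed between stages for 2 genes by the interaction term. The difference of 21DIV minus 7DIV was 1.29 for P4hb and 0.83 for Hsp90b1 on the log2 scale, with 2 treated samples at 21DIV and 3 at 7DIV. P4hb kept its call in every setting tried, while Hsp90b1 had an adjusted p of 0.0604 with no filter on low counts.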

How the results depend on the processing

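Of 41 single-gene calls 13 were kept under every setting tried and 28 were lost under at least 1; none changed direction. RLE size factors gave 2 called genes after 180 min of KCl and 2 after 45 min of Bic in the stimuli experiment. No filter gave 2 for the stage difference of KCl at 180 min. DESeq2 gave 0 after 15 min of Bic (where Derl3 got no adjusted p, as after 180 min of KCl, nor did Sdf2l1 after 15 min of KCl), 1 for the stage difference of KCl and 5 for that of Bic+4AP at 180 min. With the compared groups only, counts were 0 after 180 min of KCl at 7DIV, 3 and 1 after 15 and 180 min of KCl at 21DIV of the maturation experiment, and 2 after 45 min of Bic. Counts summed over transcripts, added after seeing the data, gave 3 between basal stages, 0 after 180 min of KCl at 7DIV, 2 and 1 after 15 and 180 min of KCl at 21DIV, and in the stimuli experiment 0 after 15 min and 180 min of KCl, after 15 min of Bic and after 180 min of TTX washout. Of the 41 single calls 37 could be tested on these sums and 12 were lost; Derl3 (15 and 180 min of KCl, 15 min of Bic) and Sdf2l1 (15 min of KCl) fell under the filter, so the 0 after 180 min of KCl is a gene not tested and those at 15 min include such genes. This sum counts a read once for each transcript it was assigned to. With replicate number as a block, 7 of 41 single calls were lost. The counts were then 0 after 180 min of KCl at 7DIV, 1 after 15 min of Bic and 2 after 180 min of washout. The numbers are uncertain for 1 basal sample of the stimuli experiment, numbered 5 in its title and 2 in its column header. Deviations of samples with the same number had a median correlation of -0.005 in the maturation and 0.008 in the stimuli experiment. Of these pairs 1 of 48 and 1 of 96 were over 0.1. No sign of pairing by number was seen, but these correlations cannot exclude it. The cause of the shifts between settings was not tested. Leaving out 1 library gave 3 to 6 between basal stages, 0 to 1 after 180 min of KCl at 7DIV, 1 to 6 after 15 min and 1 to 6 after 180 min of KCl and 2 to 12 after 180 min of Bic+4AP at 21DIV. In the stimuli experiment it gave 0 to 2 after 15 min and 0 to 1 after 180 min of KCl, 0 to 2 after 15 or 45 min of Bic, 0 to 3 after 180 min of washout and 6 to 8 in basal TTX, and for the stage differences 0 to 1 (KCl) and 1 to 4 (Bic+4AP). The comparisons with 0 calls and not named here had 0 under every setting. Depth limited Ern1, Hyou1, Derl3, Eif2ak3 and Sdf2l1, which had few counts in most libraries.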
